A study of Homo sapiens with 10 samples.

Results

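The 41 genes described here act in S phase and DNA replication. They are origin licensing factors, subunits and activators of the replicative helicase, replicative polymerases, clamp and clamp loader subunits, enzymes of deoxynucleotide supply and a few regulators of entry into S phase. They were chosen by gene symbol and found by Ensembl gene identifier among the 58229 genes of the deposited FPKM table (fragments scaled by transcript length and library total), where 41 of 41 were present. All 41 had a mean of at least 1 FPKM, so the filter on low values removed no member, and none was listed at 0 in any of the 10 libraries. The series measured mRNA of human multiple myeloma cells of 2 established lines, one labelled OCI, without a more precise name, and one labelled H929, a plasma cell line. In each line 1 library came from cells treated with AIMP1 protein, 1 from cells overexpressing AIMP1, 2 from cells with AIMP1 knockdown and 1 from wild-type cells. AIMP1 is a scaffold of the complex that holds several aminoacyl-tRNA synthetases, and it is also released from cells as a cytokine. The dose and time of the protein, the constructs, and whether libraries came from separate cultures or single clones are not stated in the labels. Part of the spread between libraries may therefore be technical. The main model fitted line and manipulation as separate terms. Its residual spread thus also takes in any unequal response of the 2 lines to the same manipulation. It takes in, too, how far apart both AIMP1 knockdowns lay within each line. These parts cannot be separated here, and the standard errors and p-values measure no more than this mixed spread.

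DNA replication begins in G1, when ORC, CDC6 and CDT1 load the MCM2-7 ring onto origins. In S phase, CDC45 and the GINS complex join the ring to form the active helicase, polymerase alpha with primase starts each new strand, and polymerases epsilon and delta extend it on the PCNA clamp, which the RFC complex loads. Ribonucleotide reductase, thymidylate synthase, thymidine kinase and dUTPase supply the deoxynucleotides. Many of these genes are transcribed late in G1 by E2F factors once the RB protein is phosphorylated, and proliferating plasma cell lines keep them active. In bulk RNA, fewer cells in S phase and less of these mRNAs per cell cannot be told apart.

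Promoter sequence was matched for 36 of the 41 genes in a RefSeq table of the GRCh38.p14 assembly that gives 250 bases before and 50 bases after each gene's start. Because many of these genes are described as E2F targets, the windows were searched on both strands for the letters TTTCCCGC, TTTGGCGC, TTTCGCGC and TTTGCCGC, counting overlapping matches separately. At least 1 match was present in 20 of the 36 windows (55.6%), against 3.31% of all 35116 promoters of the same length and 5.75% of the 9427 promoters of tested genes. The letters CCAAT were present in 21 of the 36 windows (58.3%), against 34.6% of all promoters and 37.6% of the promoters of tested genes. MCM6 had 4 E2F-type matches, the most of any member, while RRM2, TK1 and FEN1 had none. Shown here are the windows of CDT1 and TK1, which were higher with AIMP1 protein in both lines, and of UHRF1 and GINS1, which were lower. Capitals mark the E2F-type letters, and each strand is written 5′ to 3′.
CDT1, chr16:88803539-88803838, plus strand: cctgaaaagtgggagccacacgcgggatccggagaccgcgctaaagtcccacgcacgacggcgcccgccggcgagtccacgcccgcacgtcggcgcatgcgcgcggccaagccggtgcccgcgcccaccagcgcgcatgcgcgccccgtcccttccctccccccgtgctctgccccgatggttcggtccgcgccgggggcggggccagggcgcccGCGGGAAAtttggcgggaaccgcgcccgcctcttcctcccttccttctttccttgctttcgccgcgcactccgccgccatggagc
TK1, chr17:78187155-78187454, minus strand: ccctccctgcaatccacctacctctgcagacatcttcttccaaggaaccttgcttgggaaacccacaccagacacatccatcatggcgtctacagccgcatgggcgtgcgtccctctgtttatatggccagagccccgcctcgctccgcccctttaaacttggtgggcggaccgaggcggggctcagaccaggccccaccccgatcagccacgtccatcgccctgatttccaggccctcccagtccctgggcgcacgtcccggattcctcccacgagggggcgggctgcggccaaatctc
UHRF1, chr19:4909251-4909550, plus strand: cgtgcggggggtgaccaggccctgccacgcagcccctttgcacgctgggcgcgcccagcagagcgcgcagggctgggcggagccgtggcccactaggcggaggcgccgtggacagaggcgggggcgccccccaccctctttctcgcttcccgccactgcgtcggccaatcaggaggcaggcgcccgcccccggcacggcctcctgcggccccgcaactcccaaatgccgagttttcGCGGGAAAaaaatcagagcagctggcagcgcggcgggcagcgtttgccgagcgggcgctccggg
GINS1, chr20:25407423-25407722, plus strand: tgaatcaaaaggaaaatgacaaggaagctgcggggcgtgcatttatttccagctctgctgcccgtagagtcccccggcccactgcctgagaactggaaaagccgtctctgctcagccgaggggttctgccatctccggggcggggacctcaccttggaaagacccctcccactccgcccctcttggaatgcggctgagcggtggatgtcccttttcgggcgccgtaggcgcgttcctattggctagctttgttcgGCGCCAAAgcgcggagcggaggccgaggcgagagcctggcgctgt
The windows of CDT1, UHRF1 and GINS1 each held 1 match and that of TK1 held 0. The matches thus stood in windows of genes with either direction of difference. A match describes letters and is not a measured binding site.

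AIMP1 mRNA served as the check of the labels. In OCI it was 14.4 FPKM with protein, 59.7 FPKM with overexpression, 5.03 FPKM in knockdown 1, 2.35 FPKM in knockdown 2 and 14.3 FPKM in wild type. In H929 it was 20.3 FPKM with protein, 62.5 FPKM with overexpression, 14.2 FPKM in the library labelled knockdown 1, 3.55 FPKM in knockdown 2 and 14.5 FPKM in wild type. The library labelled H929 knockdown 1 thus did not show reduced AIMP1 mRNA. The spacing of low FPKM values gave depths relative to OCI wild type, which were 27.7% to 73.2% in the other OCI libraries and 27.7% to 42.0% in the H929 libraries. FPKM over all genes summed to 10598232 in the H929 protein library and to 3437320 to 4142481 in the other H929 libraries. In OCI the sum was 7427741 in knockdown 2 and 7890139 in overexpression, and 3837398 to 4922094 in the other 3 libraries. All 9 plasma cell markers were above 0 in every library, with summed levels of 2900 to 4290 FPKM. At 1 FPKM or more were all 9 in each OCI library and 8 in each H929 library. The 3 markers of naive and mature B cells summed to 1.26 to 4.59 FPKM in the OCI libraries and to 0 in the H929 libraries. The 13 markers of T, NK, myeloid, stromal and endothelial cells summed to 7.85 FPKM in OCI protein, 4.87 to 6.73 FPKM in the other manipulated OCI libraries and 0.271 FPKM in OCI wild type. In H929 they summed to 2.70 FPKM with protein, 0.262 to 2.84 FPKM in the other manipulated libraries and 1.08 FPKM in wild type, and CD3D, CD3G, FCGR3A, COL1A2, DCN and VWF were at 0 in all 5. The part of these markers, of depth and of library totals in the results that follow was not tested.

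Over the 10 libraries the levels of the members spanned a wide range. RRM2, the small subunit of ribonucleotide reductase, had the highest mean level of 535 FPKM, and CCNE2, a cyclin that activates CDK2 at the start of S phase, had the lowest with 3.77 FPKM. Within complexes whose proteins assemble in equal numbers, the mRNAs were far from equal. MCM7 was the highest and MCM6 the lowest of the 6 MCM2-7 mRNAs in all 10 libraries, with a ratio of 4.10 in OCI knockdown 2 and 8.0 in H929 protein as its extremes. GINS3 was the lowest of the 4 GINS mRNAs in 9 libraries, the exception being OCI protein, where GINS1 was lowest. POLD2, the second subunit of polymerase delta, was 7.6 to 24.8 times as high as POLD3 in FPKM. Between these extremes MCM4 varied most in the plot of the 6 MCM2-7 mRNAs, with 39.7 FPKM in OCI knockdown 2 and 154 FPKM in OCI knockdown 1. Neither the treatment of reads with several matches nor any use of strand is stated in the labels. The levels of RRM2, which has processed pseudogenes, and of TYMS, which overlaps the antisense gene ENOSF1, are uncertain to that degree.

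**Figure D1:**
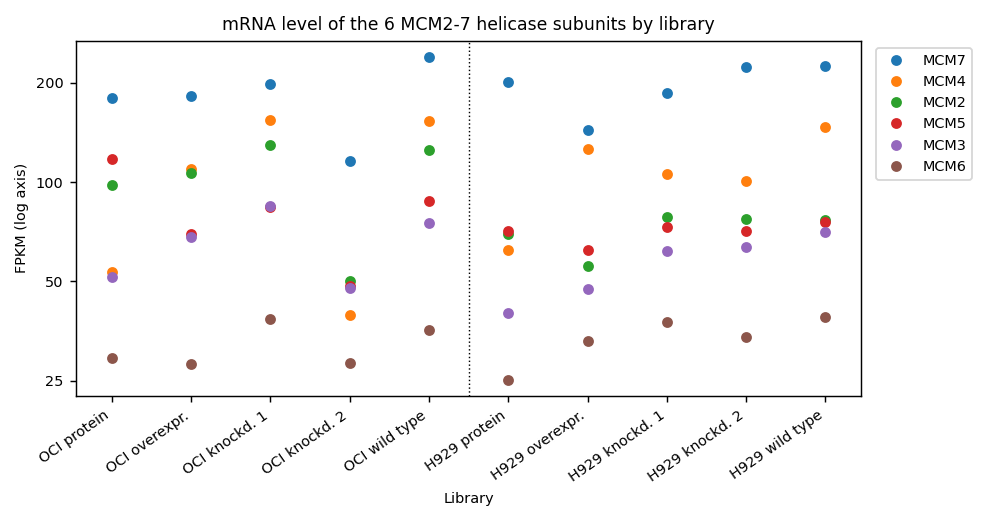
Levels of the 6 MCM2-7 mRNAs in FPKM on a log axis, 1 point per library, with OCI libraries left and H929 libraries right of the dotted line. MCM7 is at the top and MCM6 at the bottom in every library, and MCM4 is at 39.7 FPKM in OCI knockdown 2, against 153 FPKM in OCI wild type.

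The protein comparison asked how cells treated with AIMP1 protein differed from wild-type cells. More replication genes were lower than higher after the protein: 34 of 41 were lower and 7 higher in the model of both lines. In both lines at once, 22 members were lower (53.7%, against 23.7% of all 12872 tested genes) and 4 were higher (9.76%, against 36.7%). No member passed the threshold in limma with Benjamini-Hochberg adjustment over all tested genes, where 0.0155% of genes, or 2, were called. At an unadjusted p of 0.05, 2 members were higher and 6 lower, while over all tested genes 13.2% were higher and 5.79% lower. The median log2 change of the 41 genes was -0.36, and that of all tested genes was 0.14, which puts the members at -0.50 relative to it. All log2 changes were taken on log2(FPKM + 1), where the added 1 shrinks the changes of genes with low levels, and stand with their standard errors. By library, 19 members were lower and 3 higher than wild type by more than 1.5-fold in OCI protein, where 19.3% of tested genes were lower and 26.3% higher by as much. In H929 protein 10 members were lower and 4 higher, against 14.4% and 29.6% of tested genes.

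**Figure D2:**
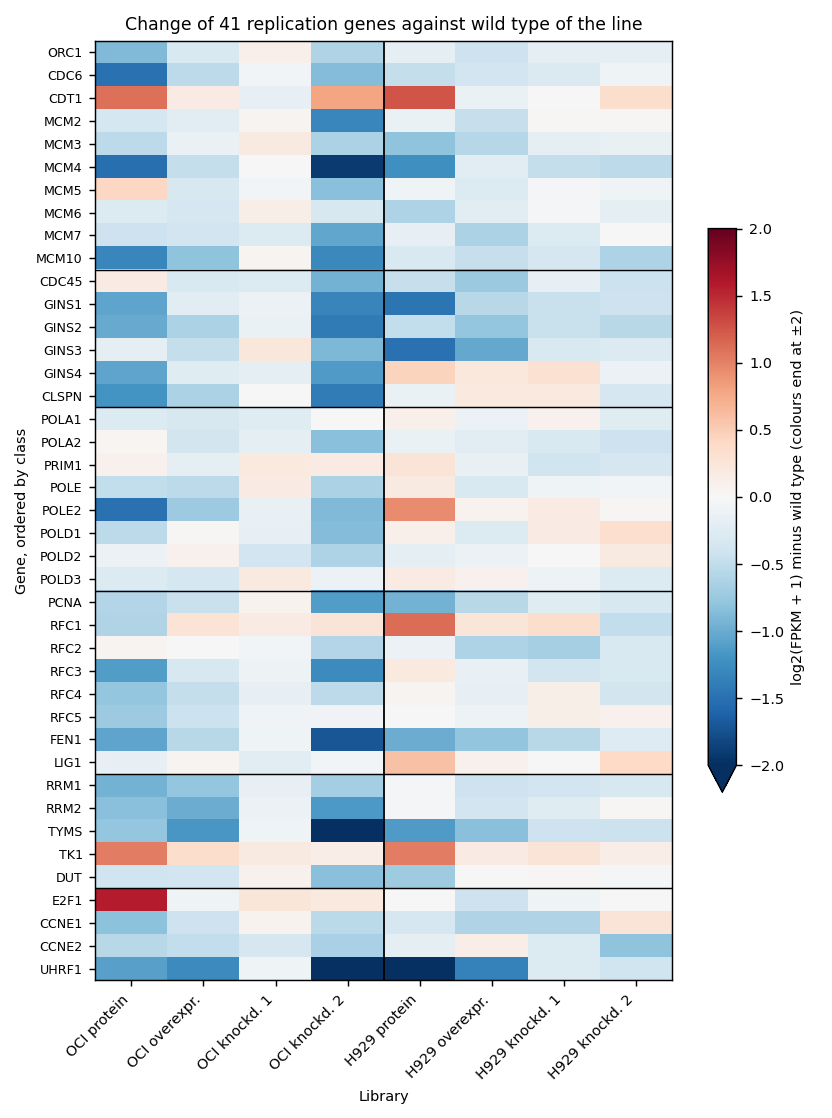
Change of each of the 41 genes in each manipulated library as log2(FPKM + 1) minus wild type of the same line, blue for lower and red for higher, with colours ending at -2 and 2 and lines between functional classes. CDT1 and TK1 are red in both protein columns, whereas UHRF1, GINS1, MCM4 and FEN1 are blue there, with MCM4 lowest in OCI protein at -1.51 and UHRF1 lowest in H929 protein at -2.27.

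Among the licensing genes, CDT1, which brings MCM2-7 to origins and is destroyed once S phase starts, was higher with the protein. CDT1 was 144 FPKM with protein, 75.0 FPKM with overexpression, 58.9 FPKM in knockdown 1, 116 FPKM in knockdown 2 and 66.5 FPKM in wild type of OCI. In H929 it was 104 FPKM with protein, 39.4 FPKM with overexpression, 43.2 FPKM in the library labelled knockdown 1, 55.2 FPKM in knockdown 2 and 43.2 FPKM in wild type. The protein library was the highest of its line in both lines, at 216% of wild type in OCI and 242% in H929. The log2 change was 1.18 ± 0.32, with a limma adjusted p of 0.141. Geminin, encoded by GMNN, binds CDT1 and blocks its action, and its mRNA was 20.8 FPKM with protein and 38.6 FPKM in wild type of OCI, and 25.2 FPKM with protein and 30.1 FPKM in wild type of H929. The ratio of CDT1 to GMNN mRNA was 6.93 with protein and 1.73 in wild type of OCI, and 4.15 with protein and 1.43 in wild type of H929. OCI knockdown 2, at 4.80, was the only other library with a ratio above 2.22.

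Of the 9 other licensing genes, 8 were lower with the protein in both lines, the exception being MCM5, a subunit of the MCM2-7 ring, which stood at 118 FPKM with protein and 87.6 FPKM in wild type of OCI. MCM4, another ring subunit, was 53.4 FPKM with protein, 110 FPKM with overexpression, 154 FPKM in knockdown 1, 39.7 FPKM in knockdown 2 and 153 FPKM in wild type of OCI. Its H929 levels were 62.2 FPKM with protein, 126 FPKM with overexpression, 106 FPKM in the library labelled knockdown 1, 101 FPKM in knockdown 2 and 147 FPKM in wild type. The protein libraries stood at 34.8% of wild type in OCI and 42.3% in H929, below all others of their line except OCI knockdown 2. The log2 change was -1.37 ± 0.49, with a limma adjusted p of 0.191. CDC6, the ATPase that loads the ring together with ORC, was 8.25 FPKM with protein and 25 FPKM in wild type of OCI, and 18.5 FPKM with protein and 26.1 FPKM in wild type of H929. MCM3 was 51.7 FPKM with protein and 75.0 FPKM in wild type of OCI, and 40.0 FPKM with protein and 70.8 FPKM in wild type of H929. The log2 changes were -0.98 ± 0.34 for CDC6 and -0.67 ± 0.30 for MCM3, with limma adjusted p of 0.188 and 0.258. MCM6, by contrast with its partner MCM4, remained at 82.4% of wild type in OCI and 64.8% in H929 with the protein, so the subunits of 1 ring did not have a common ratio.

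All 6 helicase activators had a negative change with the protein, with a median of -0.71, and 4 of them were lower in both lines. GINS1, a core subunit of the GINS complex, was 13.8 FPKM with protein, 25.7 FPKM with overexpression, 27.5 FPKM in knockdown 1, 11.3 FPKM in knockdown 2 and 29.8 FPKM in wild type of OCI. In H929, GINS1 was 13.7 FPKM with protein, 26.6 FPKM with overexpression, 28.4 FPKM in the library labelled knockdown 1, 29.4 FPKM in knockdown 2 and 39.3 FPKM in wild type. The 2 protein libraries thus had almost the same level, at 46.2% of wild type in OCI and 34.8% in H929, and the log2 change was -1.26 ± 0.38 with a limma adjusted p of 0.162. GINS2 was 24.3 FPKM with protein and 49.8 FPKM in wild type of OCI, and 25.5 FPKM with protein and 36.1 FPKM in wild type of H929. GINS3 was 14.1 FPKM with protein and 16.3 FPKM in wild type of OCI, and 3.71 FPKM with protein and 12.2 FPKM in wild type of H929. GINS3 was therefore at 86.7% of wild type in OCI and 30.3% in H929, and its change was -0.84 ± 0.44 with a limma adjusted p of 0.317. CDC45, the third component of the active helicase, was at 112% of wild type in OCI and 72.2% in H929 with the protein.

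The 8 polymerase and primase genes had a median change of -0.12 with the protein, which joins lines that went different ways. In OCI protein 6 of them were lower and 2 higher, with a median of -0.28, against 0.06 for all tested genes. In H929 protein 2 were lower and 6 higher, with a median of 0.13. All tested genes had a median of 0.17 in that library, and 59.3% of them were higher, so the class was near the general shift there. Only 1 gene was lower in both lines. That gene was POLD2, at 158 FPKM with protein and 171 FPKM in wild type of OCI, and at 110 FPKM with protein and 125 FPKM in wild type of H929. PRIM1, the catalytic primase subunit that makes the RNA primers, was the class member higher in both lines. It was 17.5 FPKM with protein and 16.4 FPKM in wild type of OCI, and 26.5 FPKM with protein and 22.1 FPKM in wild type of H929. Their changes were smaller than their standard errors, at -0.15 ± 0.27 for POLD2 and 0.17 ± 0.27 for PRIM1, and each turned to the other sign, 0.01 for POLD2 and -0.04 for PRIM1, without the H929 protein library.

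In the class of clamp, clamp loader and Okazaki fragment processing, 6 of 8 genes were lower with the protein and 2 were lower in both lines. FEN1, the nuclease that trims the flaps between Okazaki fragments, was 59.7 FPKM with protein, 85.4 FPKM with overexpression, 118 FPKM in knockdown 1, 37.8 FPKM in knockdown 2 and 126 FPKM in wild type of OCI. In H929 it was 56.1 FPKM with protein, 65.0 FPKM with overexpression, 77.4 FPKM in the library labelled knockdown 1, 94.3 FPKM in knockdown 2 and 114 FPKM in wild type. Wild type had the highest FEN1 level in both lines, and the protein libraries had 47.5% of it in OCI and 49.4% in H929. PCNA, the sliding clamp, was 101 FPKM with protein and 152 FPKM in wild type of OCI, and 82.7 FPKM with protein and 161 FPKM in wild type of H929. The log2 changes were -1.03 ± 0.45 for FEN1 and -0.77 ± 0.36 for PCNA, with limma adjusted p of 0.249 and 0.272. LIG1, the ligase that seals Okazaki fragments, went with neither, at 88.4% of wild type in OCI and 151% in H929.

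Nucleotide supply held both directions. TK1, the salvage enzyme that phosphorylates thymidine, was 238 FPKM with protein, 148 FPKM with overexpression, 132 FPKM in knockdown 1, 127 FPKM in knockdown 2 and 116 FPKM in wild type of OCI. In H929, TK1 was 205 FPKM with protein, 113 FPKM with overexpression, 120 FPKM in the library labelled knockdown 1, 110 FPKM in knockdown 2 and 100 FPKM in wild type. It was the member with the lowest p in this comparison, at 205% of wild type in OCI and 204% in H929, and its change of 1.02 ± 0.21 had a limma adjusted p of 0.108. TYMS, which makes thymidylate de novo, had 96.1 FPKM with protein and 165 FPKM in wild type of OCI, and 83.5 FPKM with protein and 185 FPKM in wild type of H929. The salvage and the de novo gene for thymidylate thus stood on opposite sides of wild type in both lines, although the TYMS change of -0.96 ± 0.53 had a limma adjusted p of 0.346. DUT, the dUTPase, was 84.5 FPKM with protein and 112 FPKM in wild type of OCI, and 62.7 FPKM with protein and 103 FPKM in wild type of H929. RRM2 was 281 FPKM with protein and 504 FPKM in wild type of OCI, and 764 FPKM with protein and 788 FPKM in wild type of H929, where its partner RRM1 was also near wild type at 98.8%.

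Among the regulators, UHRF1 had the lowest change of all 41 genes. UHRF1 binds hemimethylated DNA behind the fork and brings in the maintenance methyltransferase DNMT1. UHRF1 was 15.8 FPKM with protein, 13.9 FPKM with overexpression, 32.7 FPKM in knockdown 1, 5.58 FPKM in knockdown 2 and 34.8 FPKM in wild type of OCI. Its H929 levels were 6.21 FPKM with protein, 12.6 FPKM with overexpression, 27.7 FPKM in the library labelled knockdown 1, 25.3 FPKM in knockdown 2 and 33.7 FPKM in wild type. Protein libraries were at 45.3% of wild type in OCI and 18.4% in H929, and the log2 change was -1.68 ± 0.70 with a limma adjusted p of 0.235. CCNE1, the other cyclin E, was 8.06 FPKM with protein and 14.9 FPKM in wild type of OCI, and 13.9 FPKM with protein and 17.7 FPKM in wild type of H929. CCNE2 was 2.24 FPKM with protein and 3.74 FPKM in wild type of OCI, and 4.94 FPKM with protein and 5.73 FPKM in wild type of H929.

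**Figure D3:**
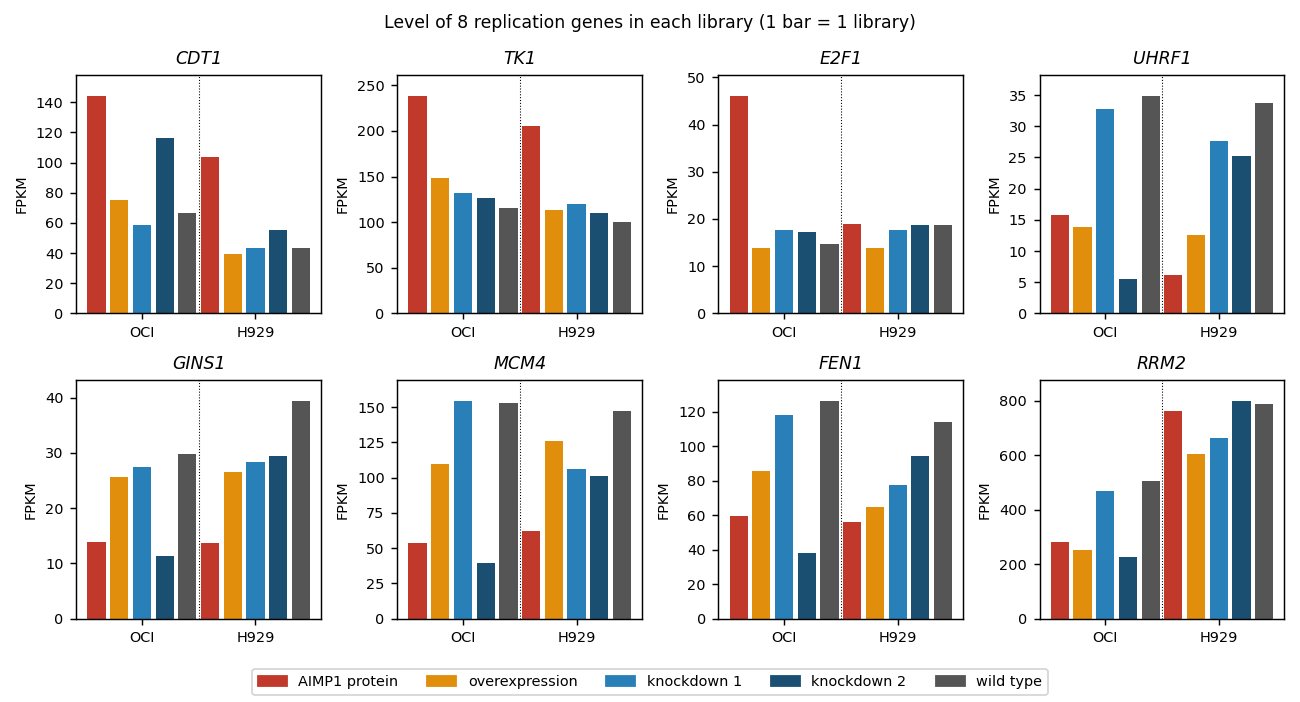
Levels in FPKM of 8 of the genes, 1 bar per library, with OCI left and H929 right of the dotted line and the wild-type library as the last bar of each line. CDT1 and TK1 are highest in the protein library of both lines, E2F1 reaches 46.0 FPKM in OCI protein alone, and RRM2 is 604 FPKM or more in every H929 library and 504 FPKM or less in every OCI library.

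One library changed the calls in the protein comparison. Without OCI knockdown 2, whose replication genes were far below those of OCI knockdown 1, the spread that limma estimated was smaller and 442 genes (3.43%) were called, 316 higher (2.45%) and 126 lower (0.979%). Of the 41 members 6 were then called, at the same sizes of change. CDT1 rose by 1.18 ± 0.23 (adjusted p = 0.0414) and TK1 rose by 1.02 ± 0.18 (adjusted p = 0.0320). UHRF1 fell by 1.68 ± 0.31 (adjusted p = 0.0360), MCM4 fell by 1.37 ± 0.24 (adjusted p = 0.0328), GINS1 fell by 1.26 ± 0.21 (adjusted p = 0.0293) and FEN1 fell by 1.03 ± 0.20 (adjusted p = 0.0425) on the log2 scale. With all 10 libraries none of the 6 passed, and no other alternative analysis called a member for protein. The smaller spread came with the removal of that library, so the 6 calls rest on that choice.

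The 2 lines went opposite ways for 15 of the 41 members, and for 11 of these OCI was lower and H929 higher with the protein. Of all tested genes, 23.7% were lower and 36.7% higher in both lines, so a large part of them did not go the same way either. Opposite directions are thus not particular to these members. POLE2, the second subunit of polymerase epsilon, was 2.26 FPKM with protein, 4.58 FPKM with overexpression, 7.26 FPKM in knockdown 1, 3.96 FPKM in knockdown 2 and 8.17 FPKM in wild type of OCI. In H929, POLE2 was 17.1 FPKM with protein, 8.81 FPKM with overexpression, 9.56 FPKM in the library labelled knockdown 1, 8.49 FPKM in knockdown 2 and 8.38 FPKM in wild type. OCI protein had 27.7% of its wild type and H929 protein had 204% of its own. The difference between the lines in the protein change was -2.44 ± 0.70, with a limma adjusted p of 0.700, and no member was called in that test, which called 0.101% of all genes, 0.0855% lower and 0.0155% higher. At an unadjusted p of 0.05, 1 member, POLE2, was lower and 1, E2F1, was higher, against 4.33% and 2.65% of tested genes. RFC1, the large subunit of the clamp loader, was 6.31 FPKM with protein and 10.1 FPKM in wild type of OCI, and 16.3 FPKM with protein and 7.03 FPKM in wild type of H929. RFC3 and RFC4, smaller subunits of the same loader, followed the same pattern, RFC3 at 43.6% of wild type in OCI and 115% in H929 and RFC4 at 57.9% of wild type in OCI and 104% in H929. GINS4 was 22.5 FPKM with protein and 47.8 FPKM in wild type of OCI, and 28.0 FPKM with protein and 20.2 FPKM in wild type of H929. E2F1, the activating transcription factor of the pathway, was 46.0 FPKM with protein, 13.9 FPKM with overexpression, 17.6 FPKM in knockdown 1, 17.2 FPKM in knockdown 2 and 14.8 FPKM in wild type of OCI. In H929 it was 13.9 to 18.9 FPKM over all 5 libraries, with 18.9 FPKM with protein and 18.8 FPKM in wild type. E2F1 was not 1 of the 15 members, as it counted as higher in both lines, at 311% of wild type in OCI and 101% in H929. The gap between the lines was 1.56 ± 0.48 for E2F1, again with a limma adjusted p of 0.700. The test of these gaps has 2 residual degrees of freedom, so it can miss large differences.

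Overexpression of AIMP1 was compared with wild type in the same model, and both comparisons use the same wild-type libraries. Here 37 members were lower and 4 higher, with a median change of -0.32 against 0.01 for all tested genes. In both lines 29 members were lower (70.7%, against 30.6% of all tested genes) and 3 were higher (7.32%, against 30.9%). limma called no member and no gene at all (0.0% of those tested), while at an unadjusted p of 0.05 312 tested genes (2.42%) were lower and 506 (3.93%) higher, none of them a member. More than 1.5-fold below wild type were 8 members in OCI, against 11.8% of tested genes, and 9 in H929, against 12.8%. None was above wild type by as much, where 18.2% of tested genes were so in OCI and 14.4% in H929. The lowest were UHRF1, at 39.9% of wild type in OCI and 37.5% in H929, and TYMS, with 73.2 FPKM with overexpression and 165 FPKM in wild type of OCI, and 103 FPKM with overexpression and 185 FPKM in wild type of H929. Their changes were -1.31 ± 0.70 and -1.0 ± 0.53, both with a limma adjusted p of 0.742. GINS2 was 31.7 FPKM with overexpression and 49.8 FPKM in wild type of OCI, and 20.6 FPKM with overexpression and 36.1 FPKM in wild type of H929. GINS3 was 11.4 FPKM with overexpression and 16.3 FPKM in wild type of OCI, and 5.50 FPKM with overexpression and 12.2 FPKM in wild type of H929. For FEN1 the levels were 68.0% of wild type in OCI and 57.3% in H929. The 3 members higher in both lines were TK1, RFC1 and LIG1. TK1 was at 128% of wild type in OCI and 113% in H929, and RFC1 was at 124% in OCI and 121% in H929. LIG1 was 35.2 FPKM with overexpression and 33.9 FPKM in wild type of OCI, and 29.2 FPKM with overexpression and 27.4 FPKM in wild type of H929, a change of 0.07 ± 0.27. CDT1, which was high with the protein, was at 113% of wild type in OCI and 91.3% in H929.

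**Figure D4:**
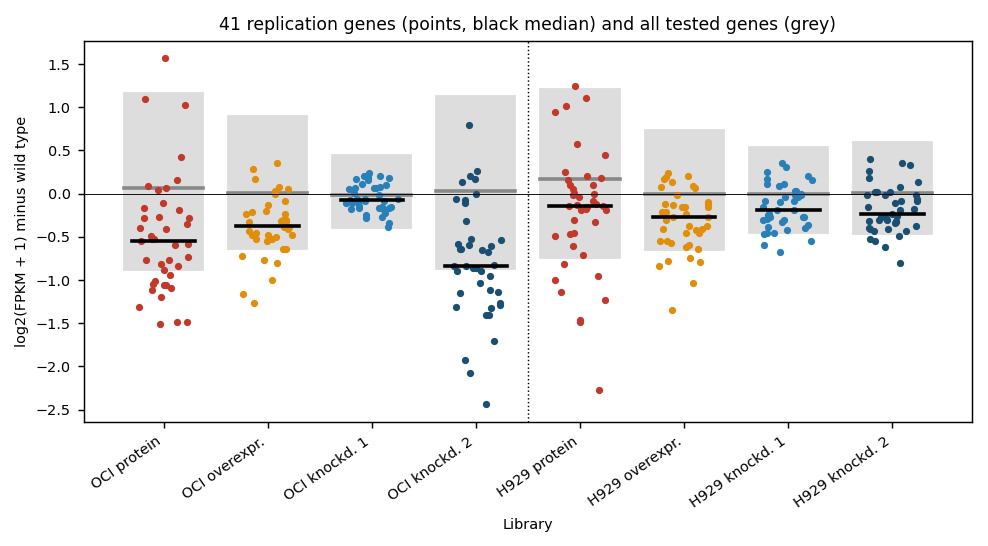
Change of each of the 41 genes against wild type of its line (coloured points, log2(FPKM + 1) scale) with their median as a black bar, over a grey box from the 10th to the 90th percentile of all tested genes and a grey line at their median, 1 column per library. The median of the members lies below that of all tested genes in all 8 libraries, by the most in OCI knockdown 2, at -0.84 against 0.04. Every library of a line is set against the same wild-type library, so the 8 columns are not independent.

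Knockdown of AIMP1 had 2 libraries in each line. Of the 41 members 35 were lower and 6 higher, with a median change of -0.28 against 0.01 for all tested genes. In all 4 libraries 14 members were lower (34.1%, against 14.3% of all tested genes) and TK1 alone was higher (2.44%, against 13.6%). Left to the 3 libraries other than the one labelled H929 knockdown 1, 18 members were lower in all 3 (43.9%, against 20.3%), and the median change was -0.33. No member and no gene was called by limma (0.0%), with adjusted p of 0.980 or more for every member, and at an unadjusted p of 0.05 85 tested genes (0.66%) were lower and 270 (2.1%) higher, none of them a member.

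The median rests to a large part on 1 library. In OCI knockdown 2, 28 of the 41 genes were lower than wild type by more than 1.5-fold, against 18.8% of all tested genes, and CDT1 alone was higher by that much, against 24.0%. In OCI knockdown 1 no member passed that fold in either direction, where 4.35% of tested genes were lower and 6.57% higher. AIMP1 mRNA was 35.1% of wild type in OCI knockdown 1 and 16.4% in OCI knockdown 2. Without OCI knockdown 2 the median change of the members was -0.12, and without OCI knockdown 1 it was -0.45. Without OCI wild type it was -0.15, and without H929 wild type it was -0.40. The same wild-type libraries serve all comparisons with wild type. They had the highest summed level of the 41 genes in their line, at 2870 FPKM in OCI and 3020 FPKM in H929. The levels in OCI knockdown 2 reached 16.0% of wild type for UHRF1, 23.3% for TYMS, 25.9% for MCM4 and 30.1% for FEN1. CDT1 was at 174% of wild type there and TK1 at 110%, so that CDT1 stood apart in that library as it did in the protein libraries. In H929, 2 members were lower by more than 1.5-fold in knockdown 2, against 6.14% of tested genes, and 2 in the library labelled knockdown 1, against 6.29%. None was higher by as much, where 10.5% of tested genes were so in knockdown 2 and 8.65% in the library labelled knockdown 1.

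Of the 14 members lower in all 4 knockdown libraries, CCNE2, POLA2, CDC45, RRM1 and GINS2 were the 5 whose smallest change was largest. GINS2 was 45.2 and 18.1 FPKM in knockdown 1 and 2 and 49.8 FPKM in wild type of OCI, and 26.2 FPKM in the library labelled knockdown 1, 24.4 FPKM in knockdown 2 and 36.1 FPKM in wild type of H929. It stood at 36.4% to 90.8% of wild type, so the 4 libraries were far apart for this gene. CCNE2 was 2.76 and 2.01 FPKM in knockdown 1 and 2 and 3.74 FPKM in wild type of OCI, and 4.58 FPKM in the library labelled knockdown 1, 2.88 FPKM in knockdown 2 and 5.73 FPKM in wild type of H929. For POLA2, the second subunit of polymerase alpha, the levels were 22.8 and 14.2 FPKM in knockdown 1 and 2 and 26.1 FPKM in wild type of OCI, and 29.8 FPKM in the library labelled knockdown 1, 27.5 FPKM in knockdown 2 and 36.9 FPKM in wild type of H929. CDC45 had 31.5 and 19.5 FPKM in knockdown 1 and 2 and 38.5 FPKM in wild type of OCI, and 39.3 FPKM in the library labelled knockdown 1, 32.4 FPKM in knockdown 2 and 44.1 FPKM in wild type of H929. For CCNE2, POLA2 and CDC45 the 4 knockdown libraries stood at 50.2% to 89.1% of wild type. The changes were -0.51 ± 0.30 for CCNE2, -0.43 ± 0.24 for POLA2, -0.46 ± 0.29 for CDC45, -0.39 ± 0.26 for RRM1 and -0.64 ± 0.33 for GINS2. TK1 was at 110% to 119% of wild type in the 4 libraries, with a change of 0.18 ± 0.18.

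OCI was compared with H929 over the 5 libraries of each line, which hold the same 4 conditions. limma called 3 of the 41 members at the adjusted threshold (7.32%), 1 higher and 2 lower, which is a smaller share than the 12.9% of all tested genes called, 7.6% higher and 5.28% lower. RRM2 was 281 FPKM with protein, 252 FPKM with overexpression, 469 FPKM in knockdown 1, 227 FPKM in knockdown 2 and 504 FPKM in wild type of OCI. In H929, RRM2 was 764 FPKM with protein, 604 FPKM with overexpression, 665 FPKM in the library labelled knockdown 1, 798 FPKM in knockdown 2 and 788 FPKM in wild type. The lines did not overlap, with 347 ± 130 FPKM in OCI and 724 ± 85.4 FPKM in H929 (SD, n = 5 each), and RRM2 fell by 1.13 ± 0.22 on the log2 scale in OCI relative to H929 (limma adjusted p = 0.0106). That call was also made in each of the 17 alternative analyses, with adjusted p between 0.00591 and 0.0480. ORC1, the large subunit of the origin recognition complex, was 9.74 FPKM with protein, 15.1 FPKM with overexpression, 20.2 FPKM in knockdown 1, 12.0 FPKM in knockdown 2 and 18.7 FPKM in wild type of OCI. Its H929 levels were 25.3 FPKM with protein, 21.4 FPKM with overexpression, 25.2 FPKM in the library labelled knockdown 1, 25.5 FPKM in knockdown 2 and 29 FPKM in wild type. ORC1 too did not overlap between the lines and fell by 0.74 ± 0.20 in OCI relative to H929, with a limma adjusted p of 0.0351 that was over the threshold in 10 of the 17 alternatives. CDT1 averaged 92.1 ± 36.4 FPKM in OCI and 57.1 ± 27.1 FPKM in H929 (SD, n = 5 each). It rose by 0.70 ± 0.20 in OCI relative to H929, with a limma adjusted p of 0.0495, and lost that call in 13 of the 17 alternatives.

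For counts by pair, libraries of the same condition were set side by side, and knockdown libraries by their number, which the labels do not say pairs them. In all 5 such pairs 8 members were lower in OCI (19.5%, against 13.8% of all tested genes) and 2, CDT1 and TK1, were higher (4.88%, against 14.3%). Every OCI library was below every H929 library for 5 members, RRM2, ORC1, POLA2, POLE2 and RFC2, where 5.75% of tested genes had that pattern. For no member was every OCI library above every H929 library, where 6.22% of tested genes were so. POLA2 ranged from 14.2 to 26.9 FPKM in OCI and from 27.5 to 36.9 FPKM in H929. RFC2, a clamp loader subunit, ranged from 24.9 to 39.4 FPKM in OCI and from 39.8 to 64.1 FPKM in H929. The changes were -0.54 ± 0.17 for POLA2 and -0.52 ± 0.18 for RFC2, with limma adjusted p of 0.0667 and 0.0815. CCNE2 averaged 2.62 ± 0.681 FPKM in OCI and 4.91 ± 1.35 FPKM in H929 (SD, n = 5 each), with a limma adjusted p of 0.0637. Without OCI knockdown 2, MCM2 rose by 0.71 ± 0.13 (adjusted p = 0.0120) and GINS3 rose by 0.97 ± 0.22 (adjusted p = 0.0265) in OCI relative to H929. That fit called 1657 of the 12872 tested genes. With all 10 libraries the changes were 0.44 ± 0.26 for MCM2 and 0.73 ± 0.28 for GINS3, with limma adjusted p of 0.282 and 0.111. Neither was called in any other alternative. ORC1 and CDT1 were at adjusted p of 0.0569 and 0.0575 without OCI knockdown 2. Depth also differed between the lines, as 4 of the 5 OCI libraries were deeper than every H929 library, and its part was not tested.

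Other replication genes, taken from a list that does not include the 41, had differences in both directions. Of 38 further genes, 28 were lower and 10 higher with the protein, with a median of -0.24, and none was called with all 10 libraries. POLD4, the smallest subunit of polymerase delta, was 116 FPKM with protein and 28.8 FPKM in wild type of OCI, and 80.3 FPKM with protein and 17.9 FPKM in wild type of H929. RPA3, a subunit of the single-strand binding protein, was 107 FPKM with protein and 67.3 FPKM in wild type of OCI, and 88.1 FPKM with protein and 57.7 FPKM in wild type of H929. TIPIN, which protects paused forks together with TIMELESS, was 4.67 FPKM with protein and 15.0 FPKM in wild type of OCI, and 5.67 FPKM with protein and 18.9 FPKM in wild type of H929. SLBP, the protein that binds the stem-loop of histone mRNAs, was 39.3 FPKM with protein and 78.2 FPKM in wild type of OCI, and 31.6 FPKM with protein and 67.9 FPKM in wild type of H929. Their changes were 2.04 ± 0.42 for POLD4, 0.63 ± 0.32 for RPA3, -1.54 ± 0.43 for TIPIN and -1.03 ± 0.33 for SLBP, with limma adjusted p of 0.108 to 0.300. Without OCI knockdown 2, POLD4 (adjusted p = 0.0254), TIPIN (adjusted p = 0.0293) and SLBP (adjusted p = 0.0372) passed. In OCI relative to H929, 4 genes of the list were called by limma and fell, namely the nuclease gene DNA2 by 0.72, the chromatin assembly subunit CHAF1B by 0.74, the salvage kinase DCK by 0.66 and the deubiquitinase USP1 by 0.78 on the log2 scale. That is 4 of 38 genes, against 5.28% of all tested genes, and none of the list was called higher, against 7.6%.

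Of 27 tested RB and E2F regulators, 13 were higher and 14 lower with the protein, with a median of -0.06. CDKN1A, which encodes the CDK inhibitor p21, was 17.8 FPKM with protein and 4.26 FPKM in wild type of OCI, and 3.72 FPKM with protein and 0.630 FPKM in wild type of H929. CDKN2D, an inhibitor of the cyclin D kinases, was 27.1 FPKM with protein and 7.13 FPKM in wild type of OCI, and 31.7 FPKM with protein and 10.6 FPKM in wild type of H929. CDC25A, the phosphatase that activates CDK2, was 15.3 FPKM with protein and 32.9 FPKM in wild type of OCI, and 19.9 FPKM with protein and 39.5 FPKM in wild type of H929. E2F6, a repressor of the family, was 16.6 FPKM with protein and 23.9 FPKM in wild type of OCI, and 20.1 FPKM with protein and 36.6 FPKM in wild type of H929. None of these 4 was called with all libraries, at limma adjusted p of 0.118 to 0.253, and CDKN2D passed without OCI knockdown 2 (adjusted p = 0.0398). OCI knockdown 2, the library with the lowest replication genes, had 16.5 FPKM of CDKN1A, against 4.26 FPKM in wild type of OCI. The highest change of this list in that library was that of CDKN1C, at 1.99. In H929 knockdown 2 CDKN1A had the highest change of the list, at 0.91, and 2 of the 41 replication genes were lower there by more than 1.5-fold. A link between CDKN1A and the replication genes was not tested.

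Of 25 mitosis genes, 9 were higher with the protein in OCI (median -0.18) and 19 in H929 (median 0.32). Of all tested genes, 52.9% were higher in OCI and 59.3% in H929. The median of the mitosis genes over both lines was 0.15, close to the 0.14 of all tested genes. AURKB, the kinase of the chromosomal passenger complex, was 134 FPKM with protein and 89.7 FPKM in wild type of OCI, and 128 FPKM with protein and 71.1 FPKM in wild type of H929. BIRC5, its partner survivin, was 132 FPKM with protein and 85.3 FPKM in wild type of OCI, and 93.0 FPKM with protein and 74.5 FPKM in wild type of H929. CCNB1, the cyclin that drives mitotic entry, was 117 FPKM with protein and 185 FPKM in wild type of OCI, and 149 FPKM with protein and 212 FPKM in wild type of H929. TPX2, a spindle assembly factor, was at 87.8% of wild type in OCI and 80.7% in H929. In OCI knockdown 2 all 25 mitosis genes were lower than wild type, with a median of -0.60, beside the -0.84 of the 41 replication genes. No mitosis gene was called in any of these comparisons, and the difference between the lists was not tested.

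**Figure D5:**
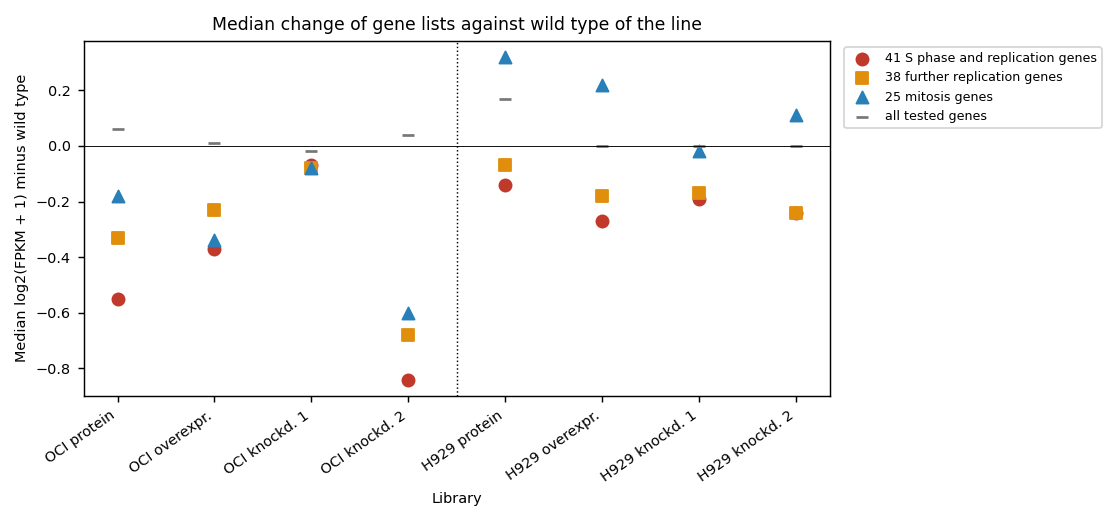
Median change against wild type of the same line, on the log2(FPKM + 1) scale, of the 41 genes, 38 further replication genes, 25 mitosis genes and all tested genes in each of 8 libraries. The 41 genes lie below 0 in all 8 libraries, while the mitosis genes lie at 0.32 in H929 protein and at -0.18 in OCI protein. Libraries of a line share the same wild-type library, so the 8 medians are not independent.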

How the data were processed

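Poly(A) RNA of 10 libraries was sequenced as paired ends, per the labels' protocols. The authors deposited 1 table of FPKM values. The tools listed per the submitters' processing notes are Bowtie 0.12.2, HISAT2 2.0 and StringTie 1.3.0, with no roles given. The build listed there is the mouse build mm8, although the gene identifiers are human. The build is therefore unclear, and coordinates come from RefSeq alone. A name table matched 57518 identifiers, 41822 with a symbol. Columns were mapped by name; those of wild type carry a suffix, ZY, that the labels leave unexplained. Counts and absolute depth are not given, so no counting intervals are printed.

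Genes averaging 1 FPKM or more, 12872 in all, entered limma 3.58.1 (R 4.3.3) on the log2(FPKM + 1) scale. All 10 libraries were fitted with additive terms for line and manipulation, which leaves 5 residual degrees of freedom. Moderation followed a trend, tests were two-sided, and Benjamini-Hochberg adjusted p-values were called at 0.05. The protein difference between lines came from 8 group means (2 residual degrees of freedom). The members and lists were chosen with earlier results of these data known. Per-library values are given for members called in a comparison; in the protein comparison for up to 3 per class and direction with the same sign in both lines; in the other comparisons for up to 5 per direction with the same sign in every library or pair; and for 5 with opposite signs between lines. In 3 further lists up to 2 genes per direction are named. Values given beyond that rule, such as those of MCM2, MCM5, MCM6 and GMNN, were chosen after they were seen.

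In simulations of 12872 genes that held 4 sizes of change for 50 genes apiece, 68% of those with a log2 value of 2 were recovered for protein, 56% for overexpression, 76% for knockdown and 96% for OCI against H929. At a log2 value of 1 the recovery was 8%, 18%, 22% and 52% in that order. The alternatives tried were a pseudocount of 0.1, looser filters, centring on the median, quantile normalization, untrended moderation, a replicate block, group means and omission of each library.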

Additional observations from a re-analysis of the deposited data

Results flagged for a closer look

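For 3 members both OCI knockdown libraries differed from wild type in 1 direction and both H929 libraries, the one labelled knockdown 1 included, in the other. The mean log2 change of the 2 OCI libraries minus that of the 2 H929 libraries was 0.27 for E2F1, -0.62 for POLE2 and 0.55 for PRIM1. E2F1 was at 119% and 116% of wild type in OCI and at 93.9% and 99.2% in H929. POLE2 was at 88.9% and 48.5% of wild type in OCI and at 114% and 101% in H929. PRIM1 was at 116% and 113% of wild type in OCI and at 74.7% and 78.9% in H929. The difference between the lines was not tested for these genes.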

How the results depend on the processing

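Over the named genes, 921 alternative values kept their direction and their side of the threshold, 23 lost a call, 11 gained one and 4 turned sign. The 4 were PRIM1 (-0.04) and POLD2 (0.01) for protein without the H929 protein library, and LIG1 for overexpression without H929 wild type (-0.11) or OCI overexpression (-0.09). All were smaller than their standard errors. Over the fits that left out 1 library, PRIM1 ranged from -0.04 to 0.39 and POLD2 from -0.31 to 0.01 for protein, and LIG1 from -0.11 to 0.25 for overexpression.

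The count of genes called for protein was 2, and it was 4 with a filter at 0.1 FPKM, 14 with no filter, 1 with median centring, 0 with quantile normalization and 12 with 8 group means. For overexpression it was 0, and 4, 17 and 1 with a filter at 0.1 FPKM, no filter and quantile normalization. For knockdown it was 0, and 2, 11 and 3 with a filter at 0.1 FPKM, no filter and group means. For OCI against H929 it was 1658, and 1063 with no filter, where 1 member in place of 3 was called. For the protein difference between lines it was 13, and 7 with a pseudocount of 0.1, 0 with a filter at 0.1 FPKM and 1425 with no filter. The median of the members for protein was -0.36, and -0.54 with quantile normalization and -0.51 with median centring. That of all tested genes was 0.14, and -0.02 with quantile normalization and -0.01 with median centring, which sets the libraries to a common median. For overexpression it was -0.32, and -0.25 with quantile normalization. Beyond that centring, the cause of the shifts was not tested.

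Leaving out 1 library at a time gave 0 to 6 members and 0 to 442 genes called for protein, with member medians of -0.56 to -0.18. For overexpression it gave 0 members, 0 to 5 genes and medians of -0.45 to -0.26, for knockdown 0 members, 0 to 6 genes and medians of -0.45 to -0.12, and for OCI against H929 1 to 4 members, 787 to 1657 genes and medians of -0.29 to -0.05.

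The knockdown numbers 1 and 2 are shared by the lines, but their deviations correlated at 0.0757 across genes, with 2 pairs, so they were treated as numbers only. A replicate block for these numbers gave 7 genes for protein, 1 for overexpression, 0 for knockdown and 1639 for OCI against H929, with 3 members called in the last and 0 in the others. Simulated log2 changes of 1 were recovered in 8% to 22% of cases for the manipulations and in 52% for OCI against H929. The simulations drew noise separately for each gene and library and held no difference in depth or shift of a whole library. With 1 library per line in most groups and unknown depth, a missing call does not show equal levels.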
